A study of Homo sapiens with 20 samples.

Results

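miR-191 and miR-425 are a pair of microRNAs (miRNAs) whose hairpins lie next to each other in 1 intron of DALRD3, a gene whose protein helps to modify arginine tRNAs. Their mature arms, miR-191-5p, miR-191-3p, miR-425-5p and miR-425-3p, were taken by name from the deposited counts and make up 4 of the 2588 mature miRNAs counted in each of 20 small RNA libraries. The libraries fall into 8 groups of 2 human cell lines, HCT116, which comes from a colorectal carcinoma, and HEK293E, a derivative of embryonic kidney cells. HCT116 cells with DROSHA knocked out (KO) carried DROSHA-p140 or full-length DROSHA, with 3 libraries each. HEK293E KO cells carried DROSHA-p140 or full-length DROSHA, again with 3 libraries each. All 12 of these libraries therefore come from cells without their own DROSHA, and p140 is a shorter form of the enzyme. HCT116 KO cells given GFP and untreated wild-type (WT) HCT116 cells gave 1 library each. A further experiment held wild-type HCT116 cells for 72 hr at 0.1% or at 9.1% fetal bovine serum (FBS), again with 3 libraries a group. The sources used here do not say how DROSHA was put back or whether the KO cells are 1 clone. Nor is it stated whether replicates came from separate cultures, so every p-value below measures only the spread between these libraries, which may be technical.

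DROSHA is the nuclease that, bound to DGCR8, releases miRNA hairpins from their primary transcripts inside the nucleus, after which DICER frees the mature arms. One arm of a hairpin usually becomes the guide that is loaded into Argonaute, and the other arm, the passenger, is mostly degraded. A hairpin within an intron must be cut from the host transcript, so neighbours within an intron share their promoter and their primary transcript but are cut out separately. miR-191-5p is abundant in many epithelial and blood cells and has been studied in solid tumours, and miR-425-5p is known for targeting the mRNA of atrial natriuretic peptide. The study's title concerns the proline-rich disordered domain of DROSHA and miRNAs of introns.

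The mature sequences below are shown because the arms are counted separately and recognise different targets. They were read from RefSeq (GRCh38.p14) for 3 of the 4 arms, run 5′ to 3′, and have the seed (bases 2 to 8) in capitals.
miR-191-5p: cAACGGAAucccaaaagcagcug
miR-191-3p: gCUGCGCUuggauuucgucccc
miR-425-3p: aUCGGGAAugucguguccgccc
The 3 seeds differ from one another, and 0 of the 2281 mature miRNAs with a RefSeq sequence share any of them, so none of these arms has a seed relative there whose reads could be set beside its own. The hairpin of miR-191, 92 bases long, shows how the arms stand to each other, with miR-191-5p first and miR-191-3p second in capitals.
MIR191 hairpin: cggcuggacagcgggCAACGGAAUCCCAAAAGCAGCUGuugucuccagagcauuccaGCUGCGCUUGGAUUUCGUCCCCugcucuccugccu

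Both hairpins are on the minus strand of chromosome 3 (hg38, positions counted from 1). MIR191 occupies chr3:49020618-49020709 and MIR425 chr3:49020148-49020234, with 383 bases between them. In the deposited tables miR-191-5p stands at chr3:49020672-49020694, miR-191-3p at chr3:49020631-49020652, miR-425-5p at chr3:49020199-49020221 and miR-425-3p at chr3:49020159-49020180. Each arm has a single entry there, so its reads are not shared with a second hairpin of the same name. GENCODE 29 places both hairpins in intron 1 of DALRD3 (chr3:49015488-49022293, minus strand) in 4 of its transcripts, and neither touches an exon in them. In the transcript mapped here this intron is 2527 bases long, with miR-191 at bases 137 to 228 and miR-425 at bases 612 to 698, so miR-191 is transcribed first. On the other strand, exon 1 of NDUFAF3, a gene for an assembly factor of mitochondrial complex I, lies between the hairpins, and miR-191 lies in intron 1 of that gene. The sources used here do not say whether reads were counted by strand.

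**Figure D1:**
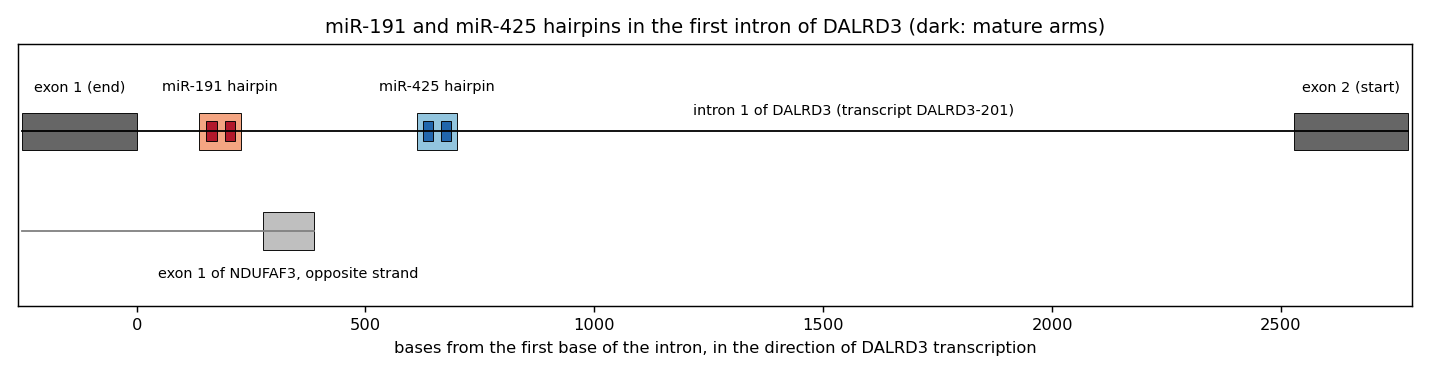
Map of intron 1 of DALRD3 to scale, in bases from the first base of the intron in the direction of transcription. The hairpins of miR-191 (bases 137 to 228) and miR-425 (bases 612 to 698) stand near the start of the 2527-base intron, with their mature arms in dark colour, and exon 1 of NDUFAF3 on the opposite strand stands between them. Exons 1 and 2 of DALRD3 are drawn only where they meet the intron.

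Reads were counted for each mature arm, and levels are given in CPM, the arm's count scaled to a common total of miRNA reads per library. The libraries held 305603 to 327011 reads in HCT116 KO with p140 and 764015 to 873718 with full-length DROSHA, 135084 to 246008 in HEK293E KO with p140 and 224262 to 335803 with full-length DROSHA, 38288 in KO with GFP and 856658 in untreated WT, and 1767223 to 2822317 in 0.1% FBS and 1745624 to 1927439 in 9.1% FBS. DROSHA's own mRNA is not among these counts, so the check of the knockout is a list of miRNAs made without DROSHA (mirtrons, miR-320a and miR-484 among them). That list took 71.7% of the reads in KO with GFP against 1.29% in untreated WT. With p140 it took 7.20% to 21.5% of reads in HCT116 KO, against 2.81% to 5.12% with full-length DROSHA, and 15.6% to 20.1% in HEK293E KO, against 10.6% to 12.3% with full-length DROSHA. No pair of replicates was alike within counting noise (chi-square per degree of freedom 3.57 to 88.9). Replicate 3 stood apart in the 4 HCT116 groups with replicates, at 36.4 to 88.9 against replicates 1 and 2, which differed by 3.57 to 8.29. Several results that involve HCT116, though not all of them, are therefore also given without replicate 3 of each group. Of the markers of the lines, miR-218-5p of HEK293E reached 36495 to 81197 CPM in HEK293E and at most 272 CPM in HCT116. The 4 epithelial markers of HCT116 (miR-200c-3p, miR-141-3p, miR-192-5p and miR-194-5p) summed to 30572 to 38464 CPM in the WT libraries, to 4100.5 CPM in KO with GFP, where 1 of them was at 0, and only to 260 to 352 CPM in HCT116 KO with p140 and 445 to 487 CPM with full-length DROSHA. The last 2 ranges are close to those of HEK293E KO (389 to 437 CPM with p140 and 441 to 541 CPM with full-length DROSHA). The gap is carried by miR-200c-3p and miR-141-3p, which reached at most 197 CPM in the HCT116 rescue libraries and at least 10040.5 CPM in the WT libraries. miR-192-5p had 9.77 to 21.4 CPM with p140 and 36.6 to 65.4 CPM with full-length DROSHA, against 42.0 to 122 CPM in the WT libraries. miR-194-5p had 105 to 187 CPM with p140 and 149 to 188 CPM with full-length DROSHA, inside the 96.8 to 370.1 CPM of the WT libraries. The HCT116 rescue libraries are called by their labels here.

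Across the 8 groups the 5p arm was the major one of both hairpins, and miR-191-5p was more abundant than miR-425-5p in every library. miR-191-5p, the guide arm of miR-191, ranked between 17 and 59 among the mature miRNAs of a library and only 98 in KO with GFP. Its mean level, from low to high, was 418 CPM in KO with GFP (1 library), 2244 ± 424 CPM in HCT116 KO with p140, 2847 CPM in untreated WT (1 library), 3217 ± 130.2 CPM in HCT116 KO with full-length DROSHA, 4363 ± 163 CPM in HEK293E KO with p140, 5811 ± 1512 CPM in HEK293E KO with full-length DROSHA, 7509 ± 1274 CPM in 9.1% FBS and 10751 ± 1749 CPM in 0.1% FBS (SD, n = 3 unless stated). In that order the ranges of the HEK293E groups overlapped each other, and that of HEK293E with full-length DROSHA overlapped 9.1% FBS. miR-425-5p, the guide arm of miR-425, ran from 235 CPM in KO with GFP through 586 ± 90.7 CPM in HCT116 KO with p140 and 1626 ± 94.6 CPM with full-length DROSHA to 2200.4 CPM in untreated WT. It continued with 2665 ± 232 CPM in 9.1% FBS, 3054 ± 338 CPM in HEK293E KO with p140, 3777 ± 334 CPM in HEK293E KO with full-length DROSHA and 4304 ± 265 CPM in 0.1% FBS. Its neighbours in that order overlapped between 9.1% FBS and HEK293E with p140, and between HEK293E with full-length DROSHA and 0.1% FBS.

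The passenger arms were far scarcer. miR-425-3p averaged 71.8 ± 24.7 CPM in HCT116 KO with p140 and 202 ± 2.04 CPM with full-length DROSHA, 332 ± 46.5 CPM in HEK293E KO with p140 and 408 ± 86.0 CPM with full-length DROSHA, and 279 ± 57.3 CPM in 0.1% FBS and 199 ± 27.6 CPM in 9.1% FBS. It had 52.2 CPM (2 reads) in KO with GFP and 156 CPM in untreated WT. miR-191-3p, the rarest member, had 0 reads in KO with GFP and 50.2 CPM in untreated WT. Its means over the groups with replicates lay between 38.8 ± 18.9 CPM in HCT116 KO with p140 and 112 ± 24.6 CPM in HEK293E KO with p140. In order of level each group overlapped the next lower one, except HCT116 KO with p140 above KO with GFP and HCT116 KO with full-length DROSHA above untreated WT. These orders depend on scaling. With TMM scaling over all 20 libraries (a factor per library that centres most miRNAs), 4 groups for miR-191-5p, 6 for miR-191-3p, 5 for miR-425-5p and 5 for miR-425-3p took another place, while 0.1% and 9.1% FBS then stood highest and KO with GFP lowest for all 4 arms.

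**Figure D2:**
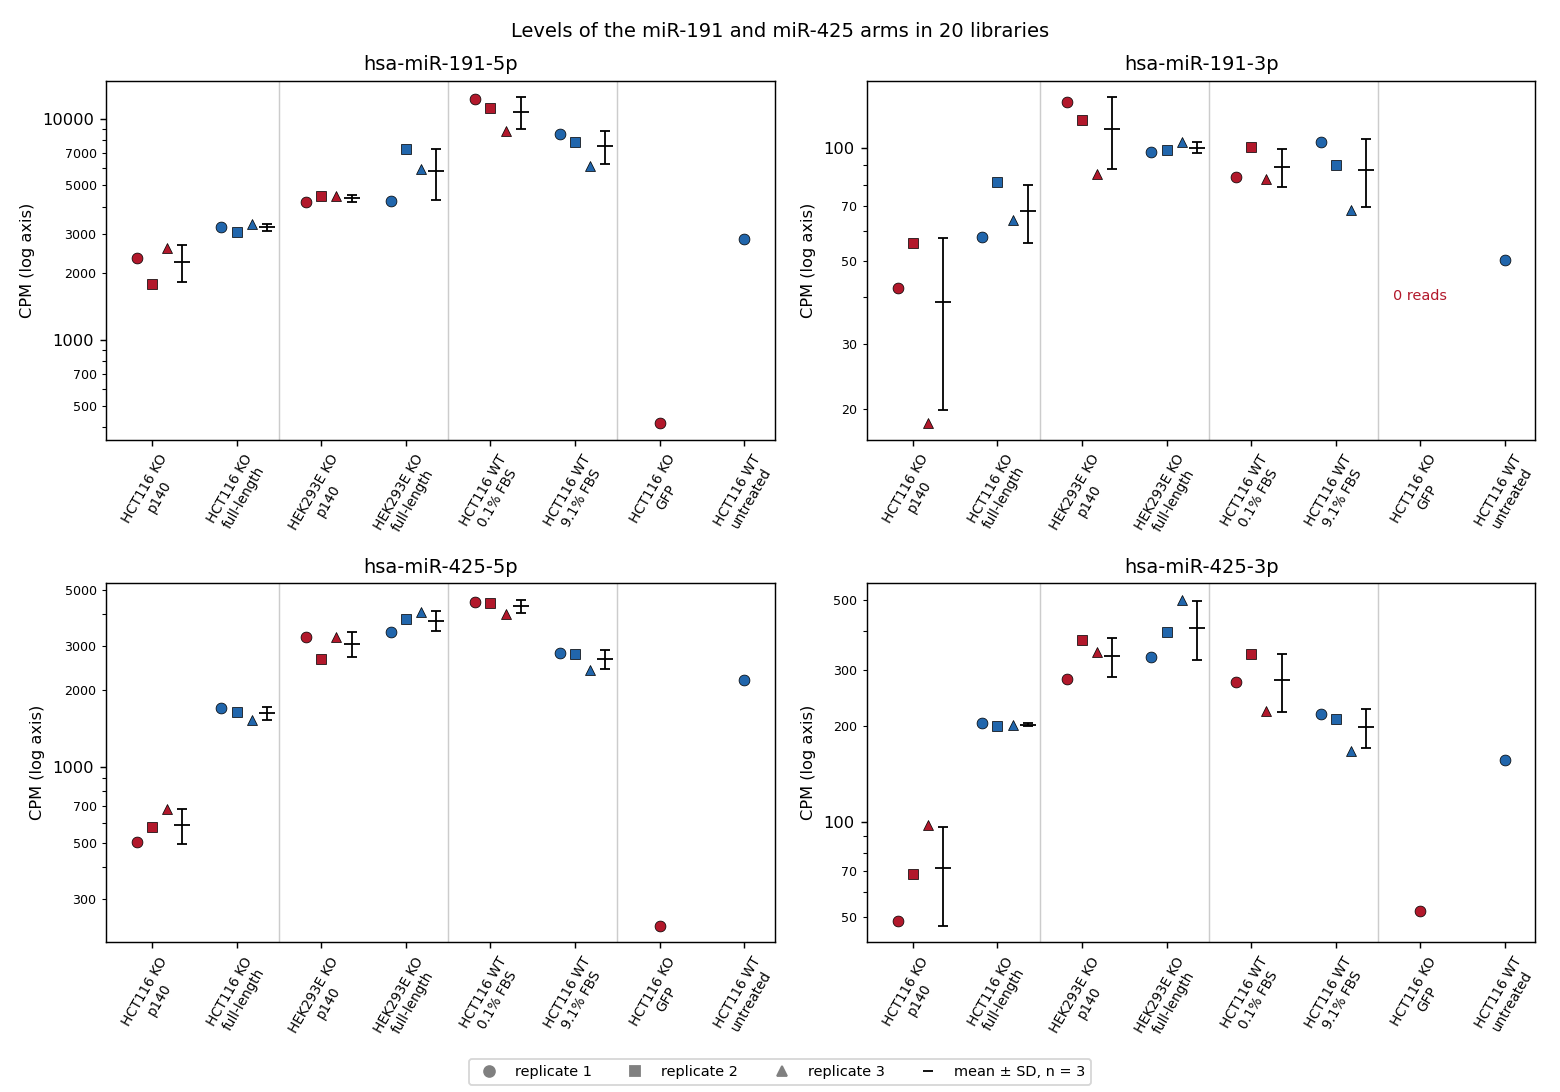
CPM (log axis) of the 4 arms in each of the 20 libraries, with replicate numbers as symbols, the p140, 0.1% FBS and GFP libraries in red, the libraries they are set against in blue, and black bars for mean ± SD where n = 3. miR-425-5p in HCT116 KO with p140 (501 to 682 CPM) lies below every other group except the KO with GFP library (235 CPM). miR-191-3p had 0 reads in that library.

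In HCT116 KO cells, p140 gave lower levels of miR-191-5p and of both miR-425 arms than full-length DROSHA, and the drop of miR-425 was the deeper one. miR-425-5p had 501, 576 and 682 CPM with p140, against 1707, 1648 and 1522 CPM with full-length DROSHA. miR-425-3p had 48.8, 68.7 and 97.9 CPM with p140, against 204, 200.3 and 202 CPM with full-length DROSHA. All 3 p140 libraries lay below all 3 full-length libraries for both arms of miR-425, with a wide gap between the groups. miR-191-5p had 2351, 1777 and 2605 CPM with p140, against 3246, 3075 and 3331 CPM with full-length DROSHA, and these groups did not overlap either, though the gap was narrow. miR-191-3p had 42.3, 55.6 and 18.3 CPM with p140 (13, 17 and 6 reads), against 58.0, 81.3 and 64.1 CPM with full-length DROSHA. Its 3 p140 libraries were also the lowest, with the nearest libraries of the 2 groups close together. The share of all miRNAs whose groups separated in this way was not counted, here or in the comparisons below. Whether such separation is particular to these arms is therefore not known.

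Changes were tested with edgeR's quasi-likelihood test on TMM-scaled counts over all miRNAs with enough reads, with Benjamini-Hochberg adjustment and a threshold of 0.05. Of the 446 miRNAs tested in HCT116 KO, 59.6% passed, 31.2% as lower and 28.5% as higher with p140, beside 3 of the 4 arms lower here. miR-425-5p fell by 1.56 on the log2 scale (SE 0.15, adjusted p = 2.2e-04 by edgeR), which is 2.95-fold lower with p140. The fall of miR-425-3p was of like size, with a log2 fold change of -1.58 ± 0.27 (SE, edgeR adjusted p = 0.0029). miR-191-5p fell less, by 0.61 on the log2 scale (SE 0.15, edgeR adjusted p = 0.011), and without replicate 2 of the p140 group its change was -0.46 and missed the threshold (edgeR adjusted p = 0.055). The change of miR-191-3p was -0.88 ± 0.43 and did not pass (edgeR adjusted p = 0.11), while with the replicate number as a block it was -0.91 and passed (edgeR adjusted p = 0.041). Without replicate 3 of each group the changes were -0.70 for miR-191-5p, -0.62 for miR-191-3p, -1.74 for miR-425-5p and -1.88 for miR-425-3p. The median of all miRNAs tested was -0.11. Scaled to the reads of the list of miRNAs made without DROSHA, that median moved by -1.52, all 168 miRNAs that passed were lower, and the changes of the arms were -2.14 for miR-191-5p, -2.79 for miR-191-3p, -3.06 for miR-425-5p and -3.04 for miR-425-3p, all of which passed.

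Other miRNAs of protein-coding introns that passed in this comparison were nearly all lower with p140, though many did not pass. Over all 446 miRNAs tested, 31.2% passed as lower and 28.5% as higher. In a list of miRNAs that share an intron with another miRNA (those of MCM7, SMC4, AOPEP and CLCN5), 24 of 28 arms were tested. Of these 11 passed as lower, 0 passed as higher and the median change was -0.68. miR-15b-5p of the SMC4 intron fell by 1.36 and miR-25-3p of the MCM7 intron by 0.54, whereas the changes of the neighbours of miR-25, 0.32 for miR-93-5p and -0.02 for miR-106b-5p, did not pass (edgeR adjusted p = 0.0069, 0.02, 0.061 and 0.91). In a list of single guests of protein-coding introns, 12 of 24 arms passed as lower, 1 passed as higher and the median was -0.45. Among its most abundant members miR-30e-5p fell by 0.79 and miR-26b-5p, the 1 that passed as higher, changed by 0.60 (edgeR adjusted p = 0.0025 and 0.0096). The still more abundant miR-103a-3p (0.04) and miR-26a-5p (0.27) did not pass (edgeR adjusted p = 0.73 and 0.055). On the list of miRNAs made without DROSHA all 12 arms tested of 17 passed as higher, with a median of 1.84. These lists were not compared with each other by a test.

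In HEK293E KO cells none of the 4 arms passed the test between p140 and full-length DROSHA. miR-425-5p had 3249.8, 2663 and 3248 CPM with p140, against 3416, 3842 and 4074 CPM with full-length DROSHA. miR-191-5p had 4175, 4467 and 4447 CPM with p140, against 4249, 7268 and 5914 CPM with full-length DROSHA. The p140 libraries lay below the full-length libraries for miR-425-5p by a small margin, and for miR-191-5p the groups overlapped at replicate 1 of the full-length group. miR-425-3p had 281, 373 and 341 CPM with p140, against 330, 395 and 500.3 CPM with full-length DROSHA, and miR-191-3p had 133, 119 and 85.4 CPM with p140, against 98.1, 98.7 and 104 CPM with full-length DROSHA. Both passenger arms overlapped between the groups.

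Of the 416 miRNAs tested in HEK293E KO, 26.4% passed, 21.2% as lower and 5.29% as higher with p140 (110, or 183 with the replicate block and 47 without replicate 3 of each group), beside 0 of the 4 arms. edgeR's unadjusted p for them lay between 0.099 and 0.48, and DESeq2 called none of them either. The change of miR-191-5p was -0.32 ± 0.18 (SE, edgeR adjusted p = 0.22), but -0.30 with the replicate block (edgeR adjusted p = 0.033) and -0.52 without replicate 1 of the full-length group (edgeR adjusted p = 0.039). The other changes were -0.23 ± 0.14 for miR-425-5p, -0.21 ± 0.23 for miR-425-3p and 0.22 ± 0.30 for miR-191-3p (SE, edgeR adjusted p = 0.29, 0.55 and 0.63). Scaled to the list of miRNAs made without DROSHA, which moved the median of all miRNAs by -0.70, miR-191-5p (-1.06), miR-425-5p (-0.94) and miR-425-3p (-0.95) passed as lower and miR-191-3p turned to -0.51 without passing. Among the other neighbours in introns 1 of 23 arms passed as lower in HEK293E with a median of 0.00, and 7 of 21 arms of single guests passed as lower with a median of -0.16. The blood-cell markers, a list of 6, summed to 111 to 281 CPM in HEK293E KO with p140 and 455 to 953 CPM with full-length DROSHA. Of these sums miR-486-5p alone made up 104 to 227 CPM with p140 and 419 to 919 CPM with full-length DROSHA. Each of the others had at most 32.4 CPM, and 1 of them was at 0 in each group. The part of these markers in the values of the arms was not tested.

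The p140 effect on miR-425-5p differed between the lines. In a fit over the 12 rescue libraries its change with p140 was 1.28 ± 0.23 higher on the log2 scale in HEK293E than in HCT116 (SE, edgeR interaction test, adjusted p = 0.0062), among 3.3% of 515 miRNAs that passed (17, with 2.14% higher and 1.17% lower in HEK293E). The differences of the other arms were 1.31 ± 0.36 for miR-425-3p, 1.06 ± 0.51 for miR-191-3p and 0.23 ± 0.26 for miR-191-5p, and none passed (SE, edgeR adjusted p = 0.068, 0.26 and 0.71). With the replicate block 102 miRNAs passed and miR-425-3p was among them, at 1.30 (edgeR adjusted p = 0.0014). The call of miR-425-5p was lost without replicate 1 (1.23, edgeR adjusted p = 0.060) or replicate 2 (1.24, edgeR adjusted p = 0.064) of the HCT116 full-length group. On the scale of the list made without DROSHA the difference of miR-425-5p was 2.13 with an edgeR adjusted p of 0.33, the median of all miRNAs was 0.91 higher, and 0 miRNAs passed (70 had an unadjusted p under 0.05, and DESeq2 on its own scale called 23). Without replicate 3 of each group it was 1.51 (edgeR adjusted p = 0.0082).

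**Figure D3:**
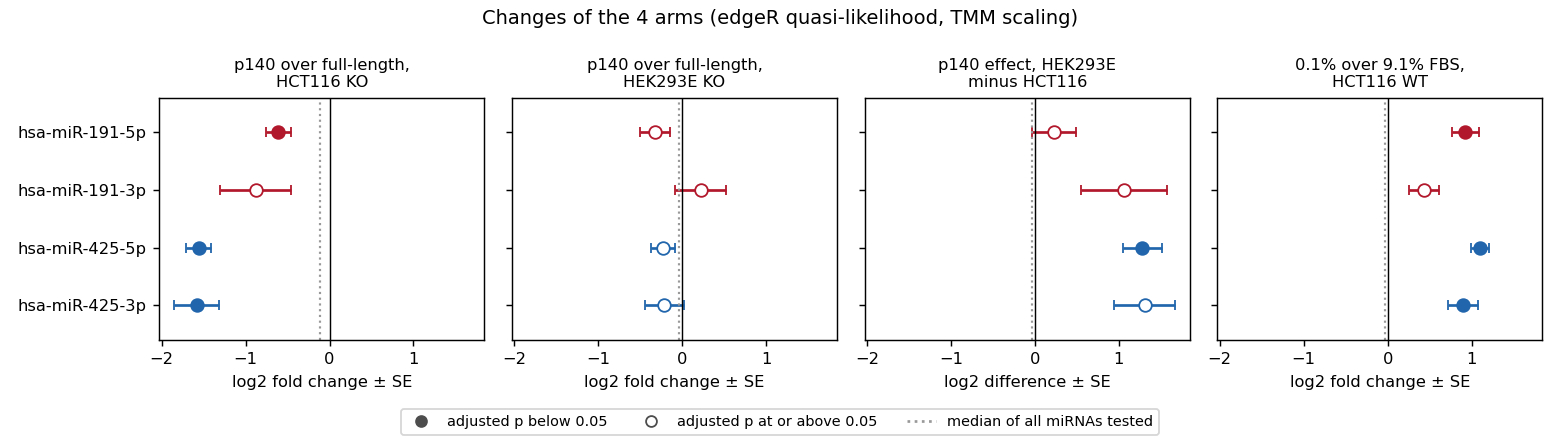
Log2 changes of the 4 arms (± SE, edgeR, TMM scaling) with p140 over full-length DROSHA in each line, for the difference of that effect between the lines, and with 0.1% over 9.1% FBS. Filled points passed an adjusted p of 0.05, and the dotted line is the median of all miRNAs tested. miR-425-5p is at -0.23 in HEK293E and -1.56 in HCT116, and miR-191-5p at -0.32 in HEK293E and -0.61 in HCT116.

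Set against HCT116, the level of miR-425 in HEK293E was higher with p140, and no arm passed with full-length DROSHA. With p140, miR-425-5p was 1.48 ± 0.16 higher on the log2 scale in HEK293E and miR-425-3p 1.31 ± 0.27 higher (SE, edgeR adjusted p = 2e-06 and 7.3e-04), 2 of 4 arms where 55.3% of 515 miRNAs passed, 27.6% as higher and 27.8% as lower in HEK293E. The differences of miR-191-5p (0.06) and miR-191-3p (0.61) did not pass with p140. Without replicate 3 of each group the miR-425 values were 1.56 and 1.59 for the 5p and 3p arms. With full-length DROSHA 61.9% of miRNAs passed, 34.6% as higher and 27.4% as lower in HEK293E, beside 0 of the 4 arms. The differences were -0.17 for miR-191-5p, -0.46 for miR-191-3p, 0.20 for miR-425-5p and 0.00 for miR-425-3p (edgeR unadjusted p between 0.19 and 0.99; DESeq2 called none of them). These values between lines turn on scaling, since plain library totals moved the median of all miRNAs by 1.02 with full-length DROSHA and by 0.92 with p140. On plain totals miR-191-5p (0.85), miR-425-5p (1.22) and miR-425-3p (1.02) passed as higher in HEK293E with full-length DROSHA, and all 4 arms did with p140 (0.96 for miR-191-5p, 1.51 for miR-191-3p, 2.38 for miR-425-5p and 2.20 for miR-425-3p).

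In wild-type HCT116 cells, both guide arms and miR-425-3p were higher after 72 hr in 0.1% FBS than in 9.1% FBS. miR-425-5p had 4491, 4422 and 4000.3 CPM in 0.1% FBS, against 2816, 2782 and 2397 CPM in 9.1% FBS. miR-191-5p had 12222, 11214 and 8817 CPM in 0.1% FBS, against 8565, 7868 and 6094 CPM in 9.1% FBS. For both guide arms all 0.1% FBS libraries lay above all 9.1% FBS libraries, miR-191-5p by a narrow margin, and replicate 3 was the lowest of each group. miR-425-3p had 276, 338 and 223 CPM in 0.1% FBS, against 218, 211 and 167 CPM in 9.1% FBS, without overlap. miR-191-3p had 83.7, 101 and 82.6 CPM in 0.1% FBS, against 104, 90.4 and 68.5 CPM in 9.1% FBS, and its groups overlapped.

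Of the 577 miRNAs tested in the serum experiment, 45.8% passed, 25.5% as higher and 20.3% as lower in 0.1% FBS, beside 3 of the 4 arms. miR-425-5p rose 2.14-fold (log2 1.10 ± 0.11, SE, edgeR adjusted p = 1.9e-04) and miR-191-5p 1.90-fold (log2 0.92 ± 0.16, SE, edgeR adjusted p = 0.0021). miR-425-3p rose 1.86-fold (log2 0.90 ± 0.18, SE, edgeR adjusted p = 0.0041). The change of miR-191-3p was 0.43 ± 0.18 (SE, edgeR adjusted p = 0.080), and it passed with the replicate block (0.45, edgeR adjusted p = 0.0011) and without replicate 3 of each group (0.37, edgeR adjusted p = 0.036). Without those libraries the changes of the other arms were 0.95 for miR-191-5p, 1.11 for miR-425-5p and 0.95 for miR-425-3p. These sizes depend on scaling. Plain library totals moved the median of all miRNAs by -0.41 and gave 0.69 for miR-425-5p, 0.52 for miR-191-5p, 0.49 for miR-425-3p and 0.02 for miR-191-3p. The scale of the list made without DROSHA moved the median by -0.63 and left 0.46 for miR-425-5p, 0.28 for miR-191-5p and 0.24 for miR-425-3p, none of which passed, and turned miR-191-3p to -0.19 (edgeR adjusted p = 0.072, 0.18, 0.26 and 0.43). The share of lower ones among the miRNAs that passed was 44.3% under TMM, 77.3% under plain totals and 91.7% on the scale of the list.

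Over all 577 miRNAs tested, 25.5% passed as higher and 20.3% as lower in 0.1% FBS, and the median was -0.03. Among the other intronic miRNAs, 12 of 24 arms of single guests passed as higher and 3 as lower (median 0.39). Of the most abundant, miR-26a-5p rose by 1.31, miR-103a-3p by 0.57, miR-30e-5p by 0.66 and miR-26b-5p by 0.36 (edgeR adjusted p = 4.5e-05, 0.0012, 0.0026 and 0.026). Of 26 arms of neighbours in introns 3 passed as higher and 7 as lower (median -0.31). There miR-25-3p rose by 0.36 and miR-15b-5p fell by 0.64, while miR-93-5p (0.10) and miR-106b-5p (0.23) did not pass (edgeR adjusted p = 0.015, 0.0026, 0.42 and 0.29). Of the 10 arms tested on the list made without DROSHA, 3 passed as higher and 3 as lower. The blood-cell markers summed to 187 to 210.5 CPM in 0.1% FBS and 55.6 to 76.8 CPM in 9.1% FBS, with none of the 6 at 0. The gap was carried by miR-486-5p (62.4 to 99.6 against 9.86 to 12.6 CPM), miR-142-3p and miR-142-5p. miR-451a overlapped between the groups. In 0.1% FBS miR-150-5p (1.77 to 3.96 against 5.71 to 7.49 CPM) and miR-223-3p (0.709 to 2.06 against 3.11 to 9.09 CPM) were lower. The part of these markers in the rises was not tested.

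The KO with GFP library held few reads of the locus. miR-191-5p had 16 reads there (418 CPM) against 2439 reads (2847 CPM) in untreated WT, 6.81-fold lower (95% interval 4.19 to 11.9). miR-425-5p had 9 reads (235 CPM) against 1885 reads (2200.4 CPM), 9.36-fold lower (interval 4.92 to 20.5). For miR-425-3p 2 reads stood against 134, a ratio of 0.334 (interval 0.0400 to 1.23), and for miR-191-3p 0 reads against 43, where the limit that 0 reads allow, 78.4 CPM (3 reads), is above the 50.2 CPM of WT. The median over the 173 miRNAs that reached 100 reads in one of these libraries and had at least 1 read in each was 5.73-fold lower in KO with GFP, which lies inside the intervals of both guide arms. miRNAs with 0 reads in KO with GFP do not count towards this median, and the list made without DROSHA was not removed from it. Scaled to the list made without DROSHA, miR-191-5p was 378-fold, miR-425-5p 519-fold and miR-425-3p 166-fold lower, against a median of 318-fold. With that list taken out of the totals the drop was smaller, 1.95-fold for miR-191-5p and 2.69-fold for miR-425-5p, and the log2 ratio of miR-425-3p turned to 0.22. With 1 library a group these differences have no replicate check, and their intervals hold counting error alone, since sequenced reads without identifiers need not be separate molecules.

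Ratios of reads within a library do not depend on scaling and show the neighbours against each other. The ratio of miR-191-5p to miR-425-5p (0.5 added to each count) was 4.68, 3.08 and 3.81 in HCT116 KO with p140, against 1.90, 1.87 and 2.19 with full-length DROSHA. The p140 libraries all lay above the full-length libraries, which were close to each other. The p140 libraries averaged 3.86 ± 0.799, against 1.98 ± 0.177 with full-length DROSHA (SD, n = 3 each), a log2 difference of 0.94. An exact two-sided permutation test gave p = 0.1, the smallest that 3 against 3 libraries allow (adjusted p = 0.4 over 16 such tests), and without replicate 3 of each group the difference was 1.01. In HEK293E KO the ratio averaged 1.44 ± 0.207 with p140 against 1.53 ± 0.330 with full-length DROSHA (SD, n = 3 each), a log2 difference of -0.07 (exact permutation p = 0.7). Over both lines, with labels permuted within a line, the difference was 0.44 (exact permutation p = 0.08, adjusted 0.4). The effect of p140 on this ratio was 1.01 lower in HEK293E than in HCT116 on the log2 scale, with an exact permutation p of 0.035 and an adjusted p of 0.14 over 4 ratios. Its labels were permuted within each line, so it is set against no p140 effect in either line. It cannot by itself test whether the lines differ. This last test was chosen after the values were seen.

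In 0.1% FBS the ratio of miR-191-5p to miR-425-5p was 2.49 ± 0.262 and in 9.1% FBS 2.80 ± 0.251 (SD, n = 3 each), overlapping, with a log2 difference of -0.17 (exact permutation p = 0.2). It was 1.78 in KO with GFP (16 against 9 reads, interval 0.740 to 4.56) and 1.29 in untreated WT (interval 1.22 to 1.37). The untreated WT library thus stood below all 6 WT libraries of the serum experiment (2.20 to 3.04), and with 1 untreated library that difference was not tested.

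The arm ratio of miR-425 had close means with p140 and with full-length DROSHA in each line. Within a line the test could not pass, since 3 against 3 libraries allow no exact permutation p below 0.1. miR-425-5p outnumbered miR-425-3p 8.35 ± 1.55 to 1 in HCT116 KO with p140 and 8.02 ± 0.432 to 1 with full-length DROSHA (SD, n = 3 each), a log2 difference of 0.04 (exact permutation p = 0.8). In HEK293E KO it averaged 9.33 ± 2.16 with p140, against 9.36 ± 1.12 with full-length DROSHA (SD, n = 3 each), a log2 difference of -0.03 (exact permutation p = 0.9). With labels permuted within each line, the difference over both lines was 0.01 (exact permutation p = 0.96, smallest possible 0.005), and leaving out single libraries gave -0.07 to 0.10. The ratio was 15.7 ± 2.45 in 0.1% FBS and 13.5 ± 0.757 in 9.1% FBS (SD, n = 3 each), overlapping (exact permutation p = 0.3), and 14.0 in untreated WT. The 12 rescue libraries lay between 6.88 and 11.4, and the 7 WT libraries between 12.9 and 17.9. They did not overlap, and that difference was not tested.

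The arm ratio of miR-191 was less certain, since it rests on only 6 to 71 reads of miR-191-3p in each of the 12 rescue libraries. miR-191-5p outnumbered miR-191-3p 71.9 ± 52.5 to 1 in HCT116 KO with p140 and 48.1 ± 9.34 to 1 with full-length DROSHA, and 39.4 ± 10.4 to 1 in HEK293E KO with p140 and 56.8 ± 14.9 to 1 with full-length DROSHA (SD, n = 3 each). The log2 differences were 0.34 and -0.53 (exact permutation p = 0.8 and 0.2, where no p below 0.1 was possible). That of HCT116 turned to -0.22 without replicate 3 of the p140 group. In 0.1% FBS the ratio was 121 ± 21.3 and in 9.1% FBS 85.8 ± 3.47 (SD, n = 3 each). The serum groups did not overlap, and the log2 difference of 0.48 had an exact permutation p of 0.1, the smallest possible (adjusted 0.4). The passenger arms taken against each other, miR-191-3p over miR-425-3p, gave 0.325 ± 0.0396 in 0.1% FBS and 0.440 ± 0.0357 in 9.1% FBS (SD, n = 3 each), without overlap, and a log2 difference of -0.44 (exact permutation p = 0.1, adjusted 0.4).

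**Figure D4:**
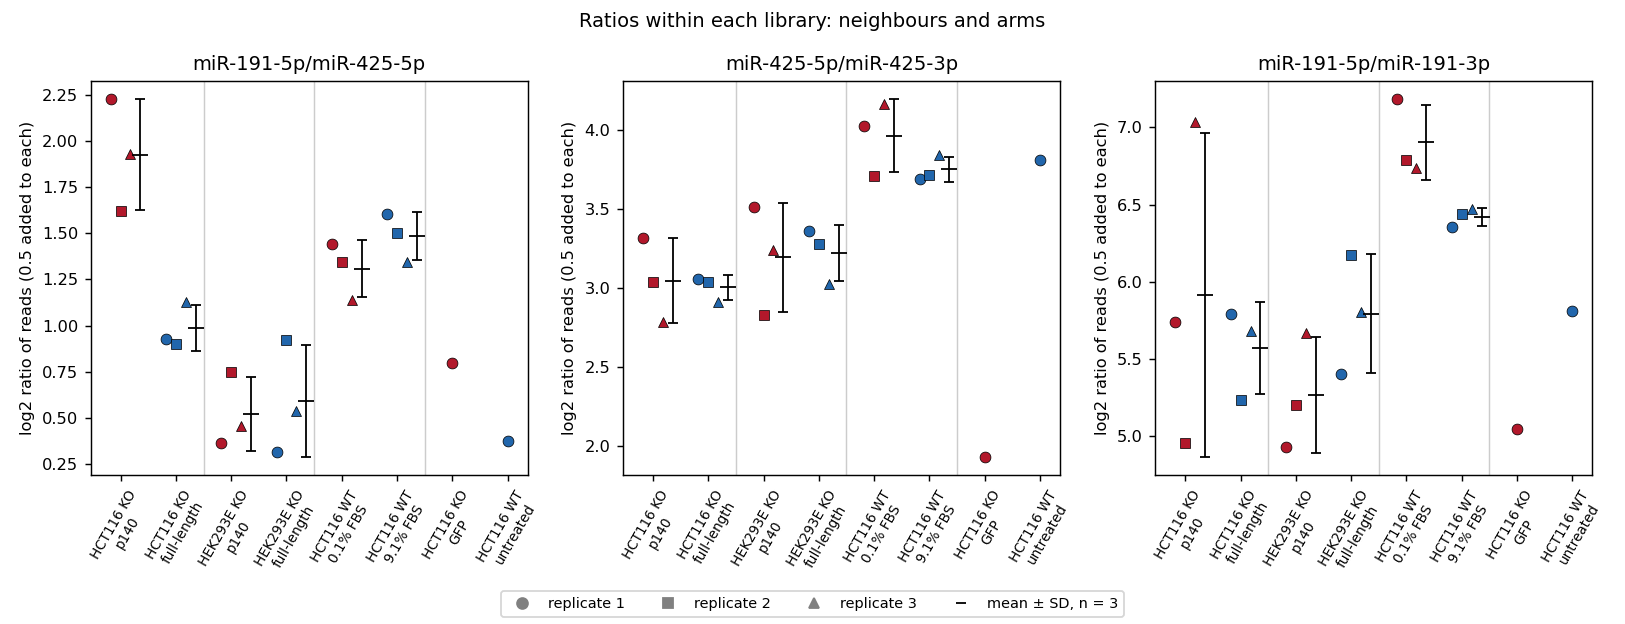
Log2 ratios of reads within each library (0.5 added to each count) for miR-191-5p over miR-425-5p, miR-425-5p over miR-425-3p and miR-191-5p over miR-191-3p, with replicate numbers as symbols and black bars for mean ± SD where n = 3. In the left panel the HCT116 KO libraries with p140 stand above those with full-length DROSHA (means 3.86 and 1.98 on the linear scale), and in the middle panel the rescue libraries stand below the WT ones.

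The levels of the neighbours were alike across the 18 libraries with replicates but not the closest to each other. Each guide arm was compared over log2(CPM + 1) with the 257 other miRNAs that had a mean of at least 100 CPM. miR-191-3p was below that level and was not compared. miR-425-5p came second in likeness to miR-191-5p (Pearson r = 0.85), after miR-149-5p (0.88) and before miR-107 (0.84) and miR-7-1-3p (0.84). Seen from miR-425-5p, its own passenger miR-425-3p came second (0.91), miR-374b-5p, an intronic miRNA of FTX, first (0.92), miR-132-3p (0.89) and miR-19a-3p (0.88) next, and miR-191-5p ninth. These correlations are a description of 18 libraries that share lines, groups and depth. The nearest miRNAs did not all change as the locus did within a comparison. miR-374b-5p changed by -3.62 with p140 in HCT116 KO and by -1.64 in HEK293E KO, and both passed (edgeR adjusted p = 1.8e-04 and 2.3e-05). miR-149-5p fell by 1.37 with p140 in HCT116 KO and by 0.55 in 0.1% FBS (edgeR adjusted p = 0.0057 and 0.021), a change opposite in sign to that of miR-191-5p in 0.1% FBS.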

How the data were processed

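Small RNA was gel-selected from TRIzol-extracted RNA with added spike-ins, ligated to randomized adaptors and sequenced on a MiSeq, per the labels' protocols. What the authors deposited are raw counts of reads for each mature arm of each hairpin. The tools were cutadapt, bedtools and STAR on hg38, per the submitters' processing notes. Their versions, the miRNA annotation, the treatment of multiply mapped reads, the use of strand and that of random adaptor bases are unstated in the sources used here. Each table held 2813 entries for 2588 mature miRNAs of 1881 hairpins, and 0 entries named anything else, so spike-ins were not used here. A miRNA listed under several hairpins was kept once, at its highest total.

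The tests used edgeR 4.0.16 (R 4.3.3; quasi-likelihood, TMM, filterByExpr with a minimum count of 10, two-sided, Benjamini-Hochberg over all miRNAs tested, threshold 0.05). Separate fits served each line and the serum experiment, and 1 fit over the 12 rescue libraries the contrasts between lines. DESeq2 1.42.0, other scalings, no filter, a replicate block, 1 fit over 18 libraries and leaving out each library were alternatives, and leaving out replicate 3 of each group and the line difference of ratios were added after seeing the data. The tests were checked on simulated data. Same-numbered libraries deviated together (r of 0.362 to 0.676 in HCT116, 0.346 to 0.565 in HEK293E and 0.150 to 0.670 in the serum experiment). The replicate block therefore took the numbers to pair the libraries, which comes from the data and not from the labels. The main edgeR tests and the permutation tests of ratios did not use this pairing. Some libraries of different number were as close or closer (r up to 0.370 in HCT116 and 0.476 in the serum experiment, between replicates 1 and 2). Ratios used exact permutation tests. Intervals are exact at 95%. The most alike miRNAs were named by a rule (the 3 with the highest Pearson r for each guide arm), and list examples by mean CPM. The members, lists and tests were chosen with earlier results of these data known.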

Additional observations from a re-analysis of the deposited data

Results flagged for a closer look

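The change of miR-425-5p with p140 against full-length DROSHA was 1.28 higher on the log2 scale in HEK293E than in HCT116, by the edgeR interaction test (SE 0.23, adjusted p = 0.0062). The direction of its change was the same in both lines, with all 3 p140 libraries below all 3 full-length libraries in each. How many of all miRNAs separated in this way was not counted. Over the alternatives tried the difference lay between 1.16 and 2.13 and its adjusted p by edgeR or DESeq2 between 3.6e-06 and 0.33. The HCT116 rescue libraries hold little of miR-200c-3p and miR-141-3p (at most 197 CPM), though not of all 4 markers of their line, and the part of this in the difference was not tested.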

How the results depend on the processing

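Of 673 alternative values for 53 results, 585 were unchanged, in that a tested value kept its direction and side of the threshold, a count of calls stayed within 1.5 times, or an untested value moved by less than its error. Ratios tested within a line or the serum experiment allow no p below 0.1. Their side of the threshold could not change, and only their direction could count against them. Where a value was not unchanged, the cause was not tested. In HCT116 KO, miR-191-3p passed with no filter on low counts (-1.21), on the scale of the list made without DROSHA (-2.79), with the replicate block (-0.91) and in 1 fit over 18 libraries (-0.92), and that list's scale gave 168 calls against 266. In HEK293E KO it gave 215 calls against 110 and -1.06, -0.51, -0.94 and -0.95 for miR-191-5p, miR-191-3p, miR-425-5p and miR-425-3p, and the replicate block gave 183 calls and -0.30 for miR-191-5p. In the serum experiment it gave 0.28, -0.19, 0.46 and 0.24 in the same order, and the block 0.45 for miR-191-3p. For the difference between lines, the calls numbered 11 with DESeq2's size factors, 0 on the list's scale (edgeR; 70 at an unadjusted p under 0.05, DESeq2 23) and 102 with the block, against 17. miR-425-5p was 2.13 on the list's scale, and miR-425-3p 1.29 in DESeq2 and 1.30 with the block. For HEK293E over HCT116 with full-length DROSHA, miR-425-3p, at 0.00, was -0.071 with no filter, -0.49 on the list's scale and -0.023 with the block, miR-425-5p was -0.29 on the list's scale, and plain totals gave 0.85, 0.56, 1.22 and 1.02 for miR-191-5p, miR-191-3p, miR-425-5p and miR-425-3p. With p140, miR-191-3p was 1.35 on the list's scale, and plain totals gave 0.96 for miR-191-5p and 1.51 for miR-191-3p. The pairing by replicate number moved no other arm across the threshold. It raised the number of calls from 266 to 326 in HCT116 KO and from 264 to 367 in the serum experiment. Between lines the calls went from 319 to 344 with full-length DROSHA and from 285 to 295 with p140. With 1 added to each count, the arm ratio of miR-425 over both lines was -0.0069.

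Leaving out single libraries gave -0.77 to -0.46 for miR-191-5p in HCT116 KO, and 86 to 129 calls and -0.52 to -0.19 for miR-191-5p in HEK293E KO. It gave 0.27 to 0.52 for miR-191-3p in the serum experiment. The difference between lines had 5 to 8 calls without replicate 1 or 2 of HCT116 KO with p140, any replicate of HCT116 KO with full-length DROSHA, or replicate 2 or 3 of HEK293E KO with p140, 11 without replicate 1 of that last group and 85 without replicate 3 of HCT116 KO with p140, with 1.23 to 1.56 for miR-425-5p and 1.17 to 1.73 for miR-425-3p. Between lines it gave -0.25 to 0.082 for miR-425-3p with full-length DROSHA and -0.095 to 0.23 for miR-191-5p with p140. The arm ratio of miR-191 ranged from -0.22 to 0.82 in HCT116 KO and from -0.37 to 0.15 over both lines. That of miR-425 ranged from -0.094 to 0.17 in HCT116 KO, -0.18 to 0.16 in HEK293E KO and -0.071 to 0.10 over both, and miR-191-5p over miR-425-5p from -0.21 to 0.094 in HEK293E KO. Without replicate 3 of each group, HEK293E KO had 47 calls and the difference between lines 37, miR-425-3p was 1.81 in that difference and -0.22 between lines with full-length DROSHA, miR-191-3p 0.37 in serum, and the arm ratios -0.16 (miR-191, HCT116 KO) and -0.0097 (miR-425, both lines).

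For KO with GFP over untreated WT, the log2 ratios of -2.77 for miR-191-5p, -3.23 for miR-425-5p and -1.58 for miR-425-3p in CPM were -8.56, -9.02 and -7.38 on the list's scale and -0.97, -1.43 and 0.22 with the list taken out of the totals. With TMM over all libraries 4, 6, 5 and 5 of the 8 groups changed place in the order of levels. Depth limits miR-191-3p most, with 6 to 71 reads in the rescue libraries.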
